A study of Mus musculus with 24 samples.

Results

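Integrins are receptors of the cell surface, each made of an alpha and a beta subunit, that hold cells to the extracellular matrix and pass force and signals across the membrane. The beta subunit binds talin, kindlin and other adaptors that lead to actin, while the pair of subunits sets which matrix protein is held. In the heart, integrins sit at the costameres and attachment sites of cardiomyocytes and on fibroblasts, endothelial cells and smooth muscle. The 10 genes described here encode subunits known from muscle and fibroblasts: Itga1, Itga5, Itga7, Itga8, Itga9, Itga11, Itgav, Itgb1, Itgb3 and Itgb5. They were taken from the count table by exact gene symbol and are 10 of its 24015 genes. All 10 passed the filter on low counts and stand among the 13816 genes tested.

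The study sequenced RNA of the mouse left ventricle after either a sham procedure or TAC, short for transverse aortic constriction, which narrows the aorta so that the ventricle pumps against raised pressure. Hearts were taken at day 2, day 4, day 7 or day 21, which gives 8 groups of 3 libraries each, 24 in all. The groups are thus sham or TAC at each of the 4 days, every group from the left ventricle of Mus musculus. Genotype, strain, sex and age, the severity of the constriction and whether the 3 libraries of a group are separate animals are not given in the labels. If they are not, the p-values describe the spread of libraries only, which may be technical.

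Libraries held 10.7 to 17.6 M counts (M, 1000000). Ventricular cardiomyocyte markers were high in every library, with a summed level of 89281 to 104386 CPM (counts per M counts) in sham and 51360 to 97807 CPM in TAC, over 8 of 8 listed genes. Of 4 red blood cell markers, Hba-a1, Hbb-b1 and Hbb-bt were at 0 in every library. The other, Alas2, had 3192 counts over all libraries. With it the list summed to 8.60 to 15.3 CPM in sham and 4.74 to 10.8 CPM in TAC. Why the other genes of this list were at 0 was not tested, so the blood content of the samples is not known. Myl7, an atrial myosin light chain, lay above 30 CPM in 4 libraries, at 38.5 CPM in replicate 2 and 95.1 CPM in replicate 3 of sham day 2, 60.6 CPM in replicate 1 of TAC day 7 and 70.2 CPM in replicate 2 of sham day 21. Replicate 1 of TAC day 2 held Esr1, the estrogen receptor alpha gene, at 2105 CPM, against at most 11 CPM in any other library. The source of this level was not tested. Where leaving out these libraries changed a call, the value without them is given. Because the tissue is bulk, fewer cells of a type and less RNA per cell cannot be told apart.

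CPM below are scaled by TMM factors (trimmed mean of M-values), and values of a group are mean ± SD of n = 3 libraries. Effects are log2 fold changes of TAC over sham ± SE. edgeR (quasi-likelihood test) gave the p-values, which were adjusted by the Benjamini-Hochberg method across the 13816 genes, and a gene was called when its adjusted p was under 0.05. Counts at an unadjusted p under 0.05 are given without the share of all genes at that threshold. They are therefore not read as effects.

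Ranked per length in the 12 sham libraries, Itgb1 stood far above the other subunits. Its level was 96.2 ± 4.86 RPKM (reads per kilobase and M reads, mean ± SD, n = 12). Itgb1 is the beta subunit shared by the receptors for collagen, laminin and fibronectin, and it can pair with each of the 7 alpha subunits described here. Itga7, the alpha subunit of the muscle laminin receptor, followed at 28.7 ± 1.77 RPKM, and Itgb5, a partner of Itgav, came next at 19.8 ± 1.25 RPKM. Itga1, a collagen receptor subunit, had 16.2 ± 1.0 RPKM, and Itga5, the fibronectin receptor subunit, 15.1 ± 0.983 RPKM. Itga9 had 11.8 ± 1.12 RPKM and Itgav 8.29 ± 0.819 RPKM. The lowest levels were those of Itga8 at 2.58 ± 0.735 RPKM, Itga11 at 1.25 ± 0.211 RPKM and Itgb3 at 0.511 ± 0.0842 RPKM. Neighbours in this order whose sham ranges overlapped were Itgb5 and Itga1, Itga1 and Itga5, Itga9 and Itgav, and Itga8 and Itga11. The order depends on the gene length used: with CPM divided by the joined exon length of a mouse annotation, Itga1 fell from place 4 to place 7 and Itgb5 passed Itga7. The 3 lowest genes kept their places.

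**Figure D1:**
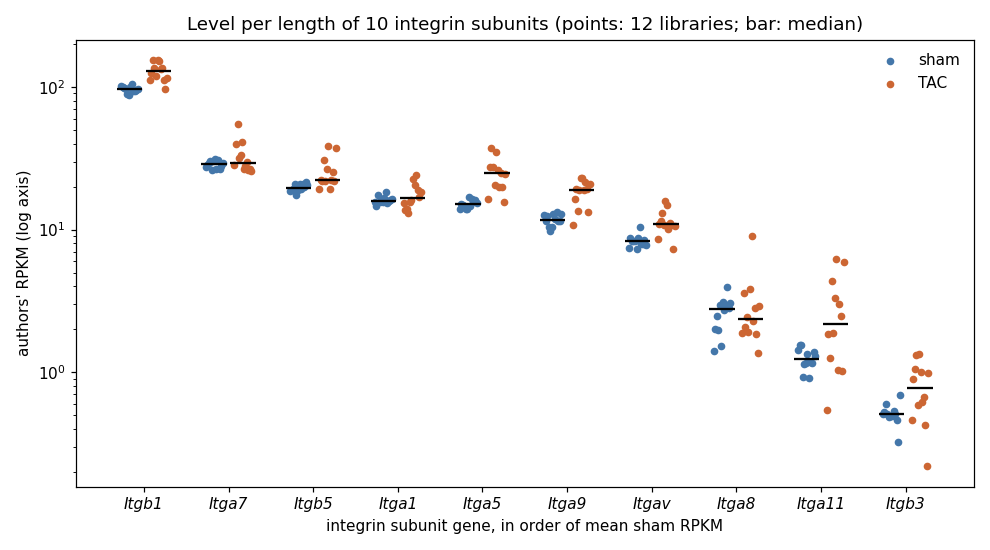
Level per length of the 10 integrin subunit genes on a log axis (RPKM made by the authors). Each point is 1 library, 12 sham and 12 TAC per gene, and bars are medians; Itgb1 lies above every other subunit in each operation, and the TAC points of Itga11 spread from 0.548 to 6.22 RPKM.

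After TAC, more of the 10 subunits were called higher at day 4 and day 7 than at day 2 or day 21, and none was called lower. At day 2 edgeR called 1 of 10 higher, Itga5. Over all genes, 3.73% were called higher and 4.58% in either direction at that day. Without replicate 1 of TAC day 2, 4 of 10 were called higher, Itga5, Itga7, Itga9 and Itgb1, and 1835 of all genes were called against 633 with every library. At day 4 the test called 6 of 10 higher, Itga5, Itga9, Itga11, Itgav, Itgb1 and Itgb3, beside a background of 14.4% of genes called higher and 24.6% in either direction. At day 7, 4 of 10 were higher, Itga1, Itga9, Itga11 and Itgb1, where 13.1% of all genes were called higher and 23.2% in either direction. At day 21 edgeR called 0 of 10, with 0.622% of genes called higher and 1.09% in either direction. There 3 members, Itga9, Itga11 and Itgb5, had an unadjusted p under 0.05, DESeq2 called 1, Itga9, and limma called 0 on counts and 0 on RPKM. The count of 0 lower held at each day by edgeR, DESeq2 and limma, and 0 members had an unadjusted p under 0.05 with a lower level in TAC. The median log2 fold change of the 10 was 0.32 at day 2, 0.68 at day 4, 0.47 at day 7 and 0.23 at day 21, while that of all genes tested lay between -0.01 and 0.01.

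**Figure D2:**
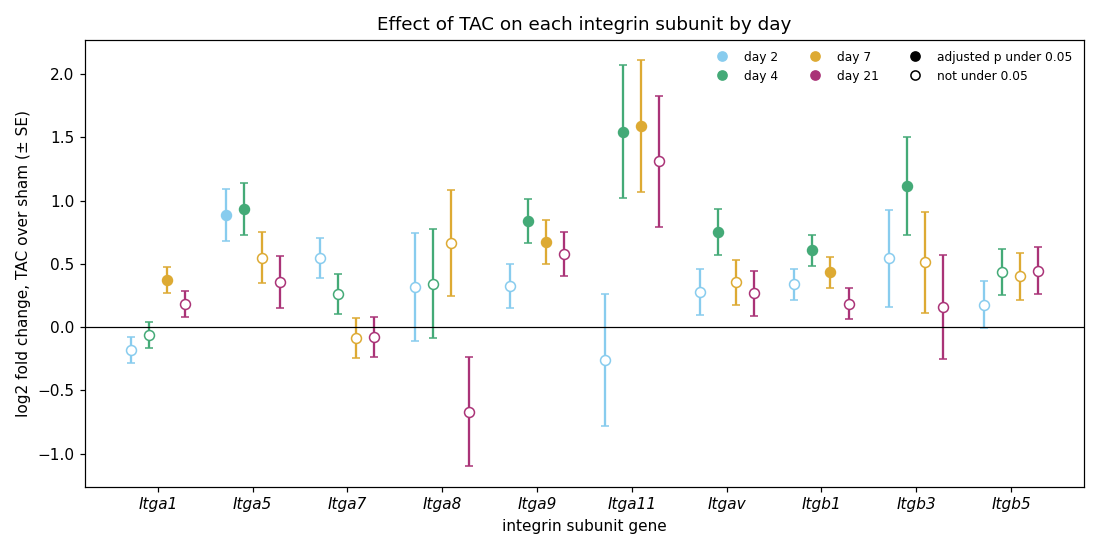
Log2 fold change of TAC over sham ± SE for each integrin subunit at day 2, day 4, day 7 and day 21 (edgeR, n = 3 libraries per group). Filled points have an adjusted p under 0.05: 1 at day 2, 6 at day 4, 4 at day 7 and 0 at day 21.

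In the contrast averaged over the 4 days, 7 of 10 were called higher and 0 lower, where 24.4% of all genes were called higher. The log2 fold changes were 1.05 ± 0.26 for Itga11, 0.68 ± 0.10 for Itga5, 0.60 ± 0.09 for Itga9, 0.58 ± 0.20 for Itgb3, 0.41 ± 0.09 for Itgav, 0.39 ± 0.06 for Itgb1 and 0.37 ± 0.09 for Itgb5. Their adjusted p-values by edgeR ran from 1.86e-05 for Itga9 to 0.0201 for Itgb3. The members not called were Itga1 at 0.08 ± 0.05 with an adjusted p of 0.229, Itga7 at 0.16 ± 0.08 with 0.105, and Itga8 at 0.16 ± 0.21 with 0.555. Of the 7 calls, 6 held when any 1 of the 24 libraries was left out. Itgb3 was lost without replicate 3 of TAC day 21, at an adjusted p of 0.0739, and without the 4 libraries over 30 CPM of Myl7, at 0.125. Without replicate 1 of TAC day 2, Itga7 was called as well, at 0.22 with an adjusted p of 0.00558.

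With all 24 libraries, the effect of TAC was not called different between the days for any of the 10. In edgeR's joint test over the days 0 of 10 passed, with 0.369% of all genes called. Itga1 and Itga7 had unadjusted p-values under 0.05 in that test, 0.00424 and 0.0293, and adjusted values of 0.187 and 0.327. Without replicate 1 of TAC day 2, the library high in Esr1, 1 of 10 passed this test, Itga7 with an adjusted p of 0.0443 by edgeR, where 113 of all genes did. Among single differences, 0 of 10 passed for day 4 minus day 2, where 0% of all genes were called, for day 7 minus day 4, where 0.0507% were, for day 21 minus day 7, where 0.0651% were, and for day 21 minus day 2, where 0.0145% were. At an unadjusted p under 0.05 these comparisons held 2, 1, 1 and 3 members. limma called 0 members in each of these tests, on counts and on RPKM. With all libraries, the calls at day 4 and their lack at day 21 therefore do not show that the effect changed. In sham hearts 0 of 10 differed over the 4 days by edgeR or limma, and 0 had an unadjusted p under 0.05, with 0.680% of all genes called by edgeR.

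**Figure D3:**
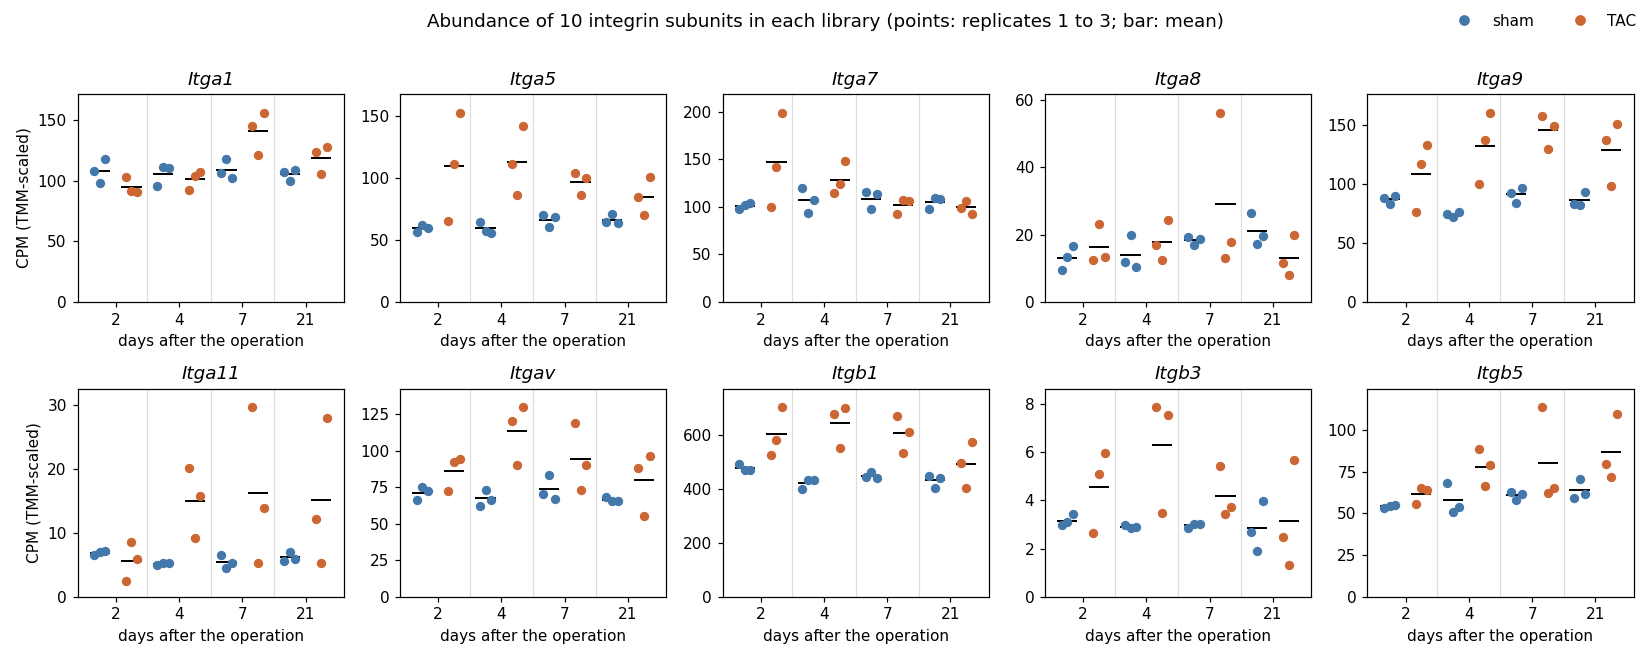
TMM-scaled CPM of each integrin subunit in each of the 24 libraries, by day and operation (points from left to right are replicates 1 to 3, bars are means). Sham points lie close together for most genes, while TAC points of Itga8, Itga11 and Itgb3 spread widely, and the lowest TAC library at day 2 is replicate 1 for 9 of 10 genes.

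Itgb1, the shared beta subunit, was higher in TAC at day 4 and day 7. At day 4 the sham libraries held 399, 432 and 433 CPM and the TAC libraries 677, 549 and 698 CPM. Every TAC library lay above every sham library, and replicate 2 was the lowest of the TAC hearts. The means were 421 ± 19.3 and 642 ± 80.7 CPM, a log2 fold change of 0.61 ± 0.12 with an adjusted p of 0.00186 by edgeR. At day 7 sham held 443, 460.3 and 439.6 CPM and TAC 669.9, 532 and 611 CPM, again without overlap, at 0.43 ± 0.12 with an adjusted p of 0.0165 by edgeR. The day 4 call held without any 1 library of the day. The day 7 call was lost without replicate 3 of sham, at 0.0582, and without replicate 1 of TAC, at 0.0954. At day 2 TAC again lay above sham in each library, with 524, 579 and 700.0 CPM against 489, 470.1 and 468 CPM, but the effect of 0.34 ± 0.12 was not called, at an adjusted p of 0.123 by edgeR. Without replicate 1 of TAC day 2 it was 0.43 with an adjusted p of 0.0332. At day 21 the groups overlapped, at 448, 403 and 441 CPM in sham and 495, 401 and 571 CPM in TAC, and the effect was 0.18 ± 0.12 with an adjusted p of 0.451 by edgeR.

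Itga5 pairs with Itgb1 to form the classical fibronectin receptor. It was the member called at day 2, where sham held 56.5, 61.8 and 59.9 CPM and TAC 65.4, 111 and 152 CPM. The TAC libraries were all above sham but far apart, with replicate 1 next to the sham range. The effect at day 2 was 0.89 ± 0.21 with an adjusted p of 0.0189 by edgeR. That call held in 2 of 6 fits without 1 library of the day: it was lost without replicate 1, 2 or 3 of sham, at 0.0766, 0.0751 and 0.0665, and without replicate 3 of TAC, at 0.230. Without replicate 1 of TAC the effect was 1.15 with an adjusted p of 0.000217. Without the 4 libraries over 30 CPM of Myl7, which leaves 1 sham library at day 2 and calls 0 of all genes there, it was 0.96 with an adjusted p of 0.393. At day 4 sham held 64.6, 57.4 and 55.9 CPM and TAC 111, 86.2 and 142 CPM, without overlap. The effect of 0.93 ± 0.21, with an adjusted p of 0.00334 by edgeR, held without any 1 library of the day. At day 7 the TAC libraries, at 104, 86.2 and 99.9 CPM, lay above the sham libraries, at 70.1, 60.1 and 68.1 CPM, but the effect of 0.55 ± 0.21 was not called, at 0.0567 by edgeR. It was called by DESeq2, at an adjusted p of 0.0374, and by edgeR without replicate 2 of TAC, at 0.0408. At day 21 the groups overlapped, with 64.6, 70.8 and 63.7 CPM in sham and 84.4, 70.1 and 101 CPM in TAC, at 0.36 ± 0.21 and an adjusted p of 0.375 by edgeR.

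Itgav is the alpha subunit of receptors for vitronectin and of receptors that release active TGF-beta from its latent complex, with Itgb1, Itgb3 or Itgb5 among its partners. It was called higher at day 4, where sham held 62.2, 73.4 and 66.3 CPM and TAC 120.3, 90.3 and 129.6 CPM. All 3 TAC libraries exceeded all 3 sham libraries. The effect of 0.75 ± 0.18, with an adjusted p of 0.00553 by edgeR, held without any 1 library of the day. On the other days the groups overlapped. Sham and TAC means were 71.3 ± 4.58 and 86.3 ± 11.9 CPM at day 2, at 0.28 ± 0.18 with an adjusted p of 0.409 by edgeR. At day 7 they were 73.6 ± 8.66 and 94.0 ± 23.4 CPM, at 0.35 ± 0.18 with 0.156 by edgeR, and without replicate 2 of TAC the adjusted p was 0.0416. At day 21 they were 66.4 ± 1.81 and 79.8 ± 21.7 CPM, at 0.27 ± 0.18 with 0.463 by edgeR.

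Itgb3, a beta subunit of platelets, endothelial cells and activated mesenchymal cells that pairs with Itgav, had the fewest reads of the 10, with 15 to 141 counts in a library. At day 4 its sham libraries held 2.99, 2.84 and 2.89 CPM and its TAC libraries 7.86, 3.48 and 7.54 CPM. The groups did not overlap, and replicate 2 of TAC was near sham. The effect of 1.12 ± 0.39 had an adjusted p of 0.0407 by edgeR. It was kept in 1 of 6 fits without 1 library of the day, that without replicate 2 of TAC at 0.0114, and in the other 5 the adjusted p was 0.0891 to 0.161. limma did not call it, at 0.0588 on counts and 0.0792 on RPKM, nor did the fit without the 4 libraries over 30 CPM of Myl7, at 0.0553. At day 7 the TAC libraries, at 5.43, 3.45 and 3.73 CPM, were above the sham libraries, at 2.84, 3.03 and 3.02 CPM, and the effect was 0.51 ± 0.40 with an adjusted p of 0.360 by edgeR. At day 2 the effect was 0.54 ± 0.38 with 0.457, and at day 21 it was 0.16 ± 0.41 with 0.874 by edgeR, with overlap on both days. Markers of platelets and megakaryocytes, 6 of 6 in the table and none at 0 throughout, summed to 16.2 to 26.7 CPM in sham and 20.6 to 58.5 CPM in TAC. Most of this sum was Pf4, with 7922 counts over all libraries, next to 704 for Ppbp and 46 to 219 for the rest. At day 4 the sum was 21.2, 26.7 and 22.2 CPM in sham and 30.3, 34.2 and 32.8 CPM in TAC. It was thus highest in replicate 2 of TAC, where Itgb3 was lowest of the TAC libraries. The part of platelets and megakaryocytes in the Itgb3 result was not tested.

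Itgb5, the other Itgav partner described here, was not called at any one day. At day 21 its TAC libraries, at 79.4, 71.5 and 109.8 CPM, all lay above its sham libraries, at 59.5, 70.3 and 61.8 CPM, with an effect of 0.45 ± 0.18 and an adjusted p of 0.208 by edgeR. At day 2 the TAC libraries were also above, at 55.3, 65.2 and 63.8 CPM against 53.4, 54.5 and 55.1 CPM, by 0.18 ± 0.18 with an adjusted p of 0.627 by edgeR. At day 4 and day 7 the groups overlapped, at 0.44 ± 0.18 with 0.0853 and 0.40 ± 0.18 with 0.115 by edgeR. Without replicate 2 of TAC the adjusted p was 0.0486 at day 4 and 0.0304 at day 7. Without the 4 libraries over 30 CPM of Myl7, none of them from day 4, Itgb5 was called at day 4. Its effect there was 0.44 with an adjusted p of 0.0380 by edgeR.

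Itga8, whose product with Itgb1 binds nephronectin and fibronectin and is found on smooth muscle and mesenchymal cells, overlapped between TAC and sham on every day. Its sham libraries ranged from 9.61 to 26.3 CPM and its TAC libraries from 7.94 to 56.1 CPM. The effects were 0.32 ± 0.43, 0.34 ± 0.43, 0.66 ± 0.42 and -0.67 ± 0.43 at day 2, day 4, day 7 and day 21, with adjusted p-values of 0.732, 0.591, 0.255 and 0.441 by edgeR. The highest value, 56.1 CPM, came from replicate 1 of TAC day 7, one of the libraries over 30 CPM of Myl7, while the other TAC libraries of that day held 13.1 and 17.7 CPM. Without it the effect at day 7 was -0.25. The direction at day 7 thus rests on 1 library.

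Itga11 encodes a receptor subunit for fibrillar collagen that is found mainly on fibroblasts. At day 4 sham held 4.92, 5.20 and 5.30 CPM and TAC 20.1, 9.18 and 15.8 CPM. The groups were well apart, and the effect was 1.54 ± 0.52 with an adjusted p of 0.0362 by edgeR. At day 7 sham held 6.47, 4.50 and 5.32 CPM and TAC 29.6, 5.29 and 13.9 CPM. Here replicate 2 of TAC lay within the sham range, so the groups overlapped although the effect of 1.59 ± 0.52 was called, at 0.0331 by edgeR. Each of these calls was kept in 1 of 6 fits without 1 library of the day. The adjusted p was 0.0862 to 0.118 in the fits that lost it at day 4 and 0.0538 to 0.313 in those at day 7. The effect at day 7 was 0.84 without replicate 1 of TAC. limma called neither, at 0.0874 on counts and 0.0795 on RPKM at day 4 and at 0.128 and 0.135 at day 7. At day 21 sham held 5.53, 6.96 and 5.97 CPM and TAC 12.2, 5.23 and 27.9 CPM, a spread among TAC hearts of 5.33 times, and 1.31 ± 0.52 was not called, at an adjusted p of 0.191 by edgeR. At day 2 the effect was -0.26 ± 0.52 with 0.826 by edgeR, and without replicate 1 of TAC, which held 2.49 CPM, it was 0.07.

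Activated fibroblast markers were high in many of the TAC libraries that were high in Itga11. All 6 listed markers were in the table and none was at 0 throughout. Their summed level was 169 to 244 CPM in the 12 sham libraries and 191 to 3211 CPM in the 12 TAC libraries. In TAC it was 331, 669 and 980 CPM at day 2, 3211, 1452 and 3094 CPM at day 4, 2336, 377 and 1239 CPM at day 7, and 684, 191 and 1203 CPM at day 21. The TAC libraries lowest in Itga11 at day 7 and day 21, replicate 2 in each case, were also lowest in these markers. At day 2 every TAC library was above the sham range in these markers, while Itga11 overlapped between the groups. General fibroblast markers, 8 of 8 in the table, summed to 1163 to 1642 CPM in sham and 1115 to 5377 CPM in TAC. The part of fibroblast number or state in the Itga11 result was not tested.

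**Figure D4:**
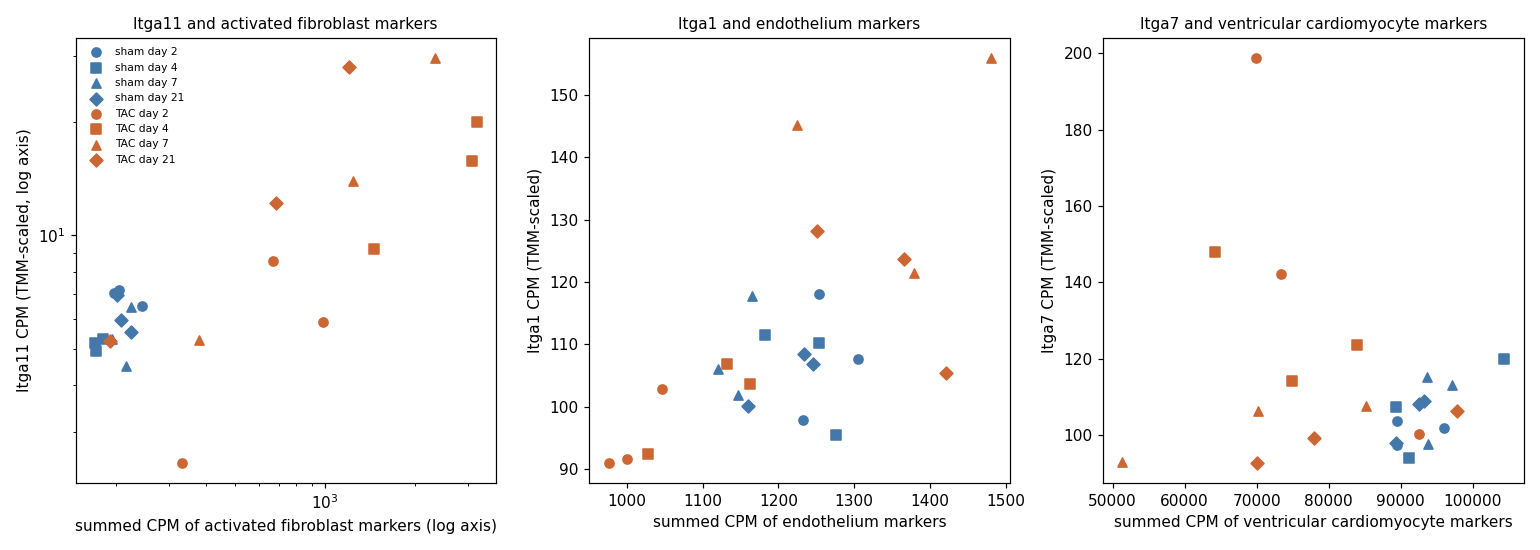
Itga11, Itga1 and Itga7 (TMM-scaled CPM, vertical axes) against the summed CPM of activated fibroblast, endothelium and ventricular cardiomyocyte markers in the 24 libraries, with log axes in the left panel only. In the left panel sham libraries cluster at 169 to 244 CPM of markers while TAC libraries reach 3211 CPM; in the right panel the highest Itga7 level, 199 CPM, is a TAC library of day 2.

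Itga1 encodes the subunit of a collagen receptor that favours basement membrane collagen and is found on endothelium, smooth muscle and fibroblasts. At day 2 sham held 108, 97.8 and 118 CPM and TAC 103, 91.7 and 91.1 CPM, overlapping, at -0.18 ± 0.10 with an adjusted p of 0.339 by edgeR. At day 4 the effect was -0.07 ± 0.10 with 0.672 by edgeR. At day 7 sham held 106, 118 and 102 CPM and TAC 145, 122 and 156 CPM. The lowest TAC library lay just above the highest sham library, and 0.38 ± 0.10 was called, at an adjusted p of 0.0137 by edgeR. This call was kept in 3 of 6 fits without 1 library of the day. It was lost without replicate 3 of sham, at 0.0661, and without replicate 1 or 3 of TAC, at 0.0581 and 0.0751. At day 21 the groups overlapped, at 105 ± 4.41 CPM in sham and 119 ± 12 CPM in TAC, with 0.18 ± 0.10 and 0.374 by edgeR.

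The summed level of endothelial markers, 8 of 8 in the table and none at 0 throughout, shared the direction of Itga1 at each day. Their sum was 1232 to 1305 CPM in sham and 976 to 1046 CPM in TAC at day 2, and 1182 to 1276 CPM against 1028 to 1163 CPM at day 4. At day 7 it was 1120.0 to 1165 CPM in sham and 1225 to 1480.1 CPM in TAC. At day 21 TAC stood at 1251 to 1422 CPM, above the sham maximum of 1246 CPM. The sums of TAC and sham were thus apart at each day, while Itga1 overlapped at day 2, day 4 and day 21. Within TAC groups the order of libraries was shared at day 2 but not at the later days. In replicates 1 to 3 of TAC day 21, Itga1 held 124, 105 and 128 CPM and the markers 1366, 1422 and 1251 CPM. Single markers were less uniform. Of the 8, 3 were called lower at day 2 and 3 at day 4. At day 7, 5 had a higher level in TAC, 2 were called higher and 1 lower. Over all genes, 4.58%, 24.6% and 23.2% were called in either direction at these days. At day 21, 0 of 8 were called, beside 1.09% of all genes. The part of endothelial cells in the Itga1 result was not tested.

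Itga7 pairs with Itgb1 as the main laminin receptor of striated muscle. It was not called at any one day, and its groups overlapped on all 4. At day 2 sham held 97.6, 102 and 104 CPM and TAC 100.2, 142 and 199 CPM. Replicate 1 of TAC was within the sham range and the other two were above it, at 0.54 ± 0.16 with an adjusted p of 0.0533 by edgeR. DESeq2 called it, at 0.0203, and so did edgeR without replicate 1 of TAC, at an effect of 0.75 with 0.000789. At day 4 sham held 120.0, 94.0 and 107 CPM and TAC 114, 124 and 148 CPM, at 0.26 ± 0.16 with 0.230 by edgeR. The means were 109 ± 9.64 and 102 ± 8.13 CPM at day 7 and 105 ± 6.20 and 99.5 ± 6.76 CPM at day 21. The effects were -0.09 ± 0.16 and -0.08 ± 0.16, with 0.722 and 0.836 by edgeR. The summed cardiomyocyte markers, given above for each operation, were 92534 CPM in replicate 1 of TAC day 2, within the sham range, and 73305 and 69947 CPM in replicates 2 and 3, below every sham library, where Itga7 was high. Of the 8 cardiomyocyte markers Myh6 had the most counts, 1.37e+07 over all libraries, next to 4.07e+06 for Actc1. At day 2 edgeR called 0 of these 8, beside 4.58% of all genes, and 1 had an unadjusted p under 0.05. The part of cardiomyocyte RNA in the Itga7 values was not tested. Reads were counted per gene, so the splice forms of Itga7 and Itgb1 that differ between muscle and other cells are not resolved.

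Itga9, whose product with Itgb1 binds tenascin-C, osteopontin and other matricellular ligands, was called at day 4 and day 7. At day 4 sham held 74.6, 72.0 and 76.0 CPM and TAC 99.97, 137 and 160.4 CPM. TAC was above sham in all libraries, at 0.84 ± 0.17 with an adjusted p of 0.00227 by edgeR. At day 7 sham held 92.8, 84.1 and 97.1 CPM and TAC 158, 129.6 and 149 CPM, apart again, at 0.67 ± 0.17 with 0.0101 by edgeR. Both calls held without any 1 library of their day. At day 21 TAC, with 138, 98.4 and 151 CPM, stayed above sham, with 83.4, 82.6 and 93.6 CPM, but 0.58 ± 0.17 was not called, at 0.102 by edgeR. It was called there without replicate 2 of TAC, at 0.74 with an adjusted p of 0.0245. At day 2 the groups overlapped, at 0.33 ± 0.17 with 0.301 by edgeR, and without replicate 1 of TAC, which held 76.7 CPM, the effect was 0.52 with 0.0339.

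Over the members, the 3 TAC libraries lay wholly above the 3 sham libraries for 3 of 10 at day 2, 6 at day 4, 5 at day 7 and 2 at day 21. Over all genes tested the share was 11.2% at day 2, 21.5% at day 4, 20.5% at day 7 and 11.9% at day 21. Within TAC groups the same library was often low for many members. Replicate 1 was lowest for 9 of 10 at day 2, replicate 2 for 7 at day 4, and replicate 2 for 9 at day 7 and for 9 at day 21. Replicate 3 was the highest for 9 of 10 at day 21. Because the members were measured in the same libraries, these are not independent counts. The calls at day 7 also depend on the 4 libraries over 30 CPM of Myl7: without them, 0 of 10 members and 892 of all genes were called at day 7, where 2 TAC libraries remained, against 3201 of all genes with every library. The lost members were Itga1, Itga9, Itga11 and Itgb1, with effects of 0.36, 0.61, 0.84 and 0.35 and adjusted p-values of 0.0860, 0.0933, 0.382 and 0.148.

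Summed over the 7 alpha subunits, the level per length was 78.7 to 90.8 RPKM in sham, with a median of 83.4, and 82.0 to 140.7 RPKM in TAC, with a median of 107. The ratio of that sum to the level of Itgb1 was 0.794 to 0.933 in sham and 0.730 to 0.941 in TAC. The ranges of the ratio overlapped between the operations. Both the ratio and the shares below rest on the authors' RPKM and depend on the gene length used. With CPM per kilobase of joined exons, sham means were 109 for Itgb1, 13.0 for Itga7 and 12.7 for Itga5. In RPKM they were 96.2, 28.7 and 15.1. Itga7 made 34.2 ± 0.404% of the alpha sum in sham and 36.4 ± 2.58% in TAC at day 2 (SD, n = 3), and 35.9 ± 2.5% and 30.7 ± 1.33% at day 4. It made 33.4 ± 2.16% of the alpha sum in sham and 24.6 ± 3.64% in TAC at day 7, and 33.2 ± 0.890% and 27.5 ± 4.55% at day 21. Itga5 made 17.8 ± 0.704% in sham and 23.6 ± 3.42% in TAC at day 2, and 17.6 ± 0.288% and 23.7 ± 3.25% at day 4. At day 7 its share was 18.1 ± 0.919% and 20.5 ± 0.644%, and at day 21 it was 18.6 ± 0.726% and 20.5 ± 1.90%. Shares of one sum depend on each other and were not tested.

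The members called in the average and whose sequence window in RefSeq ends at the annotated gene start are printed here, since each was higher in that contrast and their promoters can be set side by side. RefSeq's promoter table (GRCm38.p6) held 8 of the 10 genes, and Itga5, Itga11, Itgb1 and Itgb5 met both conditions. Each line gives the 250 bases before the start, 5′ to 3′ on the gene's strand. Capitals mark matches to GGGCGG, the core of an Sp1 site, or GGAATG, the core of a TEAD site, on either strand.
Itga5: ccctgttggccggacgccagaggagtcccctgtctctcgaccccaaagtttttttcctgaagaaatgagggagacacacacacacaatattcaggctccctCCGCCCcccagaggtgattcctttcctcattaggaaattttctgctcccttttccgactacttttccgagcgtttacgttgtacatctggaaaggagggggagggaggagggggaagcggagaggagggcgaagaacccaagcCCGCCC
Itga11: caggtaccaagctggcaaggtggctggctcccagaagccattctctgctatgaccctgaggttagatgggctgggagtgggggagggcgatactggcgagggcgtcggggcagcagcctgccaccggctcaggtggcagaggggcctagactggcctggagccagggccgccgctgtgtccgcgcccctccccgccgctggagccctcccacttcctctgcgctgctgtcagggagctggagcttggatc
Itgb1: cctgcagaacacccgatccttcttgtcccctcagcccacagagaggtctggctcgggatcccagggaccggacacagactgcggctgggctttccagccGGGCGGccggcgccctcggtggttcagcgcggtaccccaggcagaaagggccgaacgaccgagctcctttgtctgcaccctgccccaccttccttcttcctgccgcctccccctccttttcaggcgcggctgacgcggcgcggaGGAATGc
Itgb5: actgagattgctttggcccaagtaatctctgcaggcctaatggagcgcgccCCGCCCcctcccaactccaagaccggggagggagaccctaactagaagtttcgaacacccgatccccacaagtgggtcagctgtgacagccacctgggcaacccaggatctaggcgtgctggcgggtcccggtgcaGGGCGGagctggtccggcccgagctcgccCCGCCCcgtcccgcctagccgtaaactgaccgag
Itga5 lies on chromosome 15 at chr15:103366792-103367041, minus strand, and Itga11 at chr9:62677605-62677854, plus strand. Itgb1 is at chr8:128685404-128685653 and Itgb5 at chr16:33829415-33829664, both plus strand. All are upstream of exon sequence and outside the transcript. GGGCGG was found 2 times before Itga5, 1 time before Itgb1, 3 times before Itgb5 and 0 times before Itga11, and it is present in 32.7% of 32851 windows of the same length. GGAATG was found 1 time before Itgb1 and 0 times before Itga5, Itga11 and Itgb5, against 12.6% of windows. The windows of Itga1, Itga8, Itga9 and Itgav, which are not printed, held 0 matches to GGGCGG and 0 to GGAATG. The AP-1 motif TGANTCA was in 0 of the 8 member windows and in 6.75% of all, and the CArG box, the element of serum response factor, in 0 of 8 and 1.47%. Of these 8 windows, 5 end at the annotated gene start. Those of Itga8, Itga9 and Itgav belong to starts 41, 104983 and 2094 bases away from it. The windows of the 4 genes had a GC content of 55.6% for Itga5, 68.4% for Itga11, 68.0% for Itgb1 and 65.2% for Itgb5. A match is a run of letters only, and binding was not measured.

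Among the members, levels across the 24 libraries were most alike for Itgav and Itgb1, with a Pearson correlation of log2 CPM of 0.906. Next came Itga5 and Itgb1 at 0.877, Itgav and Itgb3 at 0.846, Itgb1 and Itgb3 at 0.846, and Itga11 and Itgb5 at 0.844. The lowest value was that of Itga1 and Itga7, -0.535. These describe 24 libraries that share operation, day and normalisation. Among 9193 other genes of at least 3 mean log2 CPM, those most like Itgb1 were Pabpc1 at 0.970 and Rps6ka3 at 0.968, and those most like Itga5 were Msn, the gene of moesin, at 0.979 and Rtn4 at 0.966. Itgav was most like Twf1 at 0.952 and Igf1, the growth factor, at 0.950. Itga9 was most like Sntb1 at 0.925 and Gas2l3 at 0.918, and Itga11 like Sh3d19 at 0.951 and Igsf10 at 0.941. For Itgb5 these were Lrp1 at 0.912 and Gab2 at 0.908, and for Itgb3 Wls at 0.910 and Mtpn at 0.881. Itga1 was most like Pecam1 at 0.834, an endothelial marker, and Cav1 at 0.825. Itga7 was most like Eif2s1 at 0.896 and Pa2g4 at 0.839, and Itga8 like Dkk3 at 0.791, a gene on the atrial marker list, and Abi3bp at 0.774.

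Of 16 other integrin subunits, 14 were tested, beside 3.73%, 14.4%, 13.1% and 0.622% of all genes called higher at day 2, day 4, day 7 and day 21. At day 2, 2 were called higher, the leukocyte subunits Itgam at 1.61 ± 0.30 and Itgb2 at 1.37 ± 0.36. At day 4, 5 were, Itgam at 1.71 ± 0.31, Itgb2 at 1.29 ± 0.36, Itgax at 2.23 ± 0.63, Itga4 at 1.12 ± 0.22 and the collagen receptor subunit Itga2 at 1.51 ± 0.37. At day 7, 5 were, Itga6 at 0.67 ± 0.09, Itga2 at 1.51 ± 0.36, Itga4 at 0.78 ± 0.23, Itgal at 1.42 ± 0.43 and Itgam at 0.96 ± 0.32. At day 21 edgeR called 0, with 2 at an unadjusted p under 0.05. In the average over the 4 days, 9 of 14 were called higher and 1 lower, where 24.4% of all genes were called higher. The subunits called in that contrast are not named here. Macrophage markers, 9 of 10 listed in the table, summed to 243 to 385 CPM in sham and 283 to 846 CPM in TAC, and their part in the leukocyte subunits was not tested. Itga6, another laminin receptor subunit and one known from endothelium, was the only one of the 14 whose effect was called different between days, with an adjusted p of 0.00900 by edgeR. Its mean was 109 CPM in sham and 92.8 CPM in TAC at day 2 and 92.3 and 147 CPM at day 7.

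Of 28 ligand genes tested, 2 were called higher at day 2, osteopontin (Spp1) at 6.39 ± 1.13 and tenascin-C (Tnc) at 4.88 ± 0.87, where 3.73% of all genes were called higher. At day 4, 22 were higher, beside 14.4% of all genes, and 1 lower. Calls in either direction took in 24.6% of all genes at that day, and 58.8% of those calls were higher. Tnc stood at 6.59 ± 0.94, periostin (Postn) at 4.76 ± 0.69 and fibrillin (Fbn1) at 2.02 ± 0.32, while the laminin chain Lama5 fell by 0.45 ± 0.15. At day 7, 21 were higher and 0 lower, beside 13.1% of all genes called higher and 23.2% in either direction. The smallest p-values at day 7 were those of the basement membrane collagens Col4a2 at 1.19 ± 0.15 and Col4a1 at 1.39 ± 0.18 and of the laminin chain Lama4 at 0.67 ± 0.09, and larger effects stood at 3.63 ± 0.66 for Postn and 2.57 ± 0.57 for fibronectin (Fn1). At day 21, 2 were higher, beside 0.622% of all genes, Col4a2 at 0.82 ± 0.15 and Col4a1 at 0.88 ± 0.18. The median effect of the 28 was 0.24, 1.09, 1.09 and 0.80 at day 2, day 4, day 7 and day 21. Postn, Tnc, Col1a1 and Col1a2 are on the fibroblast marker lists as well.

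Of 40 cytoplasmic proteins of integrin adhesions, 38 were tested. At day 2, 7 were higher, beside 3.73% of all genes, and 0 lower, among them kindlin-3 (Fermt3) at 1.05 ± 0.20 and the filamins Flnc at 0.97 ± 0.22 and Flna at 0.77 ± 0.20. At day 4, 17 were higher, beside 14.4% of all genes, with Fermt3 at 1.56 ± 0.21, Tgfb1i1 at 0.80 ± 0.15 and Flna at 1.04 ± 0.20. Among the 3 lower at day 4 were tensin Tns1 at -0.32 ± 0.09 and Lims2 at -0.59 ± 0.19. Over all genes, 24.6% were called in either direction at day 4, and 58.8% of those calls were higher. At day 7, 18 were higher, beside 13.1% of all genes, with Cav1 at 0.61 ± 0.11, Tgfb1i1 at 0.76 ± 0.15 and the actinin Actn4 at 0.60 ± 0.12, and 1 was lower, Tns1 at -0.49 ± 0.09. Over all genes, 23.2% were called in either direction at day 7, and 56.7% of those calls were higher. At day 21 edgeR called 0 of 38, with 9 at an unadjusted p under 0.05. Melusin (Itgb1bp2), a striated muscle protein that binds the tail of the beta subunit, was lower in the average over the days, at -0.21 ± 0.08 with an adjusted p of 0.0376 by edgeR, while Itgb1 was higher in the same contrast.

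The dystroglycan complex is the other laminin receptor of the muscle membrane, and none of its genes was called higher at any of the 4 days. Of its 11 genes, edgeR called 0 at day 2, 1 lower at day 4, the sarcoglycan Sgca at -0.52 ± 0.18, and 3 lower at day 7, among them Sgcb at -0.25 ± 0.08 and sarcospan (Sspn) at -0.27 ± 0.09. At day 21 it called 0. At an unadjusted p under 0.05 there was 1 at day 2 and 3 at day 21. In the average, 2 of 11 were higher, beside 24.4% of all genes, and 3 were lower. The share of all genes called lower in that contrast is not given here. The share of all genes called in either direction was 24.6% at day 4 and 23.2% at day 7, and 1 and 3 of 11 genes lie below or near it.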

How the data were processed

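RNA of the left ventricle was measured in 24 libraries, per the labels with a NuGEN Ovation kit on an Illumina NextSeq500. The authors deposited unnormalised counts of reads per gene symbol and, in a second file, RPKM. The submitters' processing notes name TopHat, DESeq and hg19, a human build, without versions. The mouse build, annotation, counting tool and use of strand are not given in the sources used.

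The counts were analysed with edgeR 4.0.16 in R 4.3.3: filterByExpr left 13816 genes, TMM scaling, and a quasi-likelihood fit of 8 group means with 16 residual degrees of freedom. Tests were two-sided, with Benjamini-Hochberg adjustment over all genes and a threshold of 0.05. The SE is the size of the log2 fold change divided by the square root of F. The biological coefficient of variation was 0.146. The scripts were tested on simulated counts. Libraries held 10.7 to 17.6 M counts (M, 1000000), and replicates differed by more than counting noise, with a chi-square per degree of freedom of 3.65 to 62.3.

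Alternatives were RLE scaling, no filter, DESeq2 1.42.0, limma 3.58.1 with voom, limma on log2(RPKM + 0.1) with a mean RPKM of at least 0.5, only the libraries of a day, a replicate block, Myl7 as a covariate, leaving out the 4 libraries over 30 CPM of Myl7, and leaving out each library. Levels per length are the RPKM made by the authors, or CPM over exon lengths of GENCODE vM21. Coordinates are those of RefSeq's promoter windows on GRCm38.p6.

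The members and the lists were chosen with earlier results of these data known. All 10 members are named at each day, other integrin subunits where called, and for each ligand, adhesion or dystroglycan list up to 3 called genes per day with the smallest p and any called against the list's majority. Some genes that this rule names are not reported here. For each member the 2 most correlated genes are named.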

Additional observations from a re-analysis of the deposited data

How the results depend on the processing

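The counts of members called higher at day 4 and in the average stayed within 1.5 times under each alternative fitted for them (DESeq2 and the libraries of single days were not fitted for the average), and RLE scaling and limma with voom moved no count by more. At day 2 the main count of 1 was 2 without the filter and with DESeq2, 3 with Myl7 as a covariate, and 0 with limma on RPKM, with only the libraries of the day and without the 4 libraries over 30 CPM of Myl7. At day 7 the count of 4 was 0 without those 4 libraries. At day 21 the count of 0 was 1 with DESeq2 and 3 with Myl7 as a covariate. For results of a single day, only libraries of that day were left out in turn, and for the other results each of the 24 was. Leaving out 1 library gave 0 to 4 at day 2, 4 to 7 at day 4, 1 to 7 at day 7, 0 to 1 at day 21, 6 to 8 in the average and 0 to 1 for a difference between days, the 1 (Itga7) without replicate 1 of TAC day 2. Counts of members called lower stayed at 0. Over all genes, 633 were called at day 2 and 151 at day 21 in edgeR; these were 1788 and 1059 with Myl7 as a covariate, 292 and 87 with limma voom, 0 and 3 without the 4 libraries, and 12 to 1835 and 7 to 575 without 1 library. At day 4 and day 7 the counts of 3394 and 3201 became 1402 to 3910 and 1270 to 4132 without 1 library. The direction of 5 effects turned, in 11 fits in all, and none of these effects had been called. Itgb3 at day 21 was -0.0087 with limma on counts, -0.010 with limma on RPKM, -0.061 without the 4 libraries, and -0.60 to 0.52 without 1 library, below 0 without replicate 2 of sham (-0.05) or replicate 3 of TAC. Itga11 at day 2 was 0.067 with Myl7 as a covariate and -0.68 to 0.066 without 1 library, the highest without replicate 1 of TAC. Itga8 was -0.029 to 0.52 at day 2 without 1 library, the lowest without replicate 2 of TAC. At day 7 it was -0.25 without the 4 libraries and -0.25 to 1.01 without 1 library, and in the average -0.060 to 0.25, the lowest without replicate 1 of TAC day 7 in both. The cause was not tested.

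The replicate numbers showed no clear pairing of the libraries: of 12 same-numbered pairs 1 had a correlation of deviations over 0.1, with a range of -0.151 to 0.141. Pairs with different numbers ran from -0.272 to 0.214. The check therefore cannot settle whether the numbers mark pairs, and the labels do not say. With a replicate block the members called higher were 1, 6, 5 and 0 at day 2, day 4, day 7 and day 21 and 7 in the average. The call that differed was Itga5 at day 7, at 0.55 with an adjusted p of 0.0453 by edgeR. Counting depth limits Itgb3 most, at 15 to 141 counts in a library.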
